A study of Mus musculus with 10 samples.

Results

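The comparison is of unstimulated BM-derived eosinophils (BMEos) with unstimulated BM-derived basophils (BMBs) on 4 of the 10 Affymetrix Mouse Gene 1.0 ST arrays of the series. The members were all arrays labelled as unstimulated eosinophils or basophils, which gave 2 arrays of each cell type. In each cell type, 1 array held cells of C57BL6/N wildtype mice, called B6 here, and 1 held cells of *Slpi*-/- mice, which lack the gene of secretory leukoprotease inhibitor. The difference between the cell types can therefore be formed once within each genotype, and the genotypes stand in for replicates. BMBs were grown from BM cells in IL-3 and taken as c-kit- DX5+ cells on magnetic beads, and BMEos were grown in stem cell factor and Flt3L and then in IL-5, so that cell type, culture and selection cannot be told apart. The labels name no separate cultures or mice behind an array. No age was given in the labels. The p-values below measure the spread between these arrays only. 2 arrays of unstimulated mast cells, 1 for each genotype, entered the fit for the estimate of the spread and are given beside some results.

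Eosinophils and basophils are granulocytes of type 2 immunity that leave the BM by separate routes from shared progenitors. Eosinophils are armed with cationic granule proteins, a peroxidase and the receptors for IL-5 and eotaxins, while basophils carry the high-affinity IgE receptor, histamine and granule proteases, and depend on IL-3. C/EBP and GATA transcription factors are known to set the choice between these lineages. Mast cells share the IgE receptor, histamine and several proteases with basophils but stay in tissues.

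Signals are log2 values, so that a step of 1 is a 2-fold change. Background was set on each array from olfactory receptor genes, which these cells are not known to use, as their 95th percentile, and lay between 5.57 and 5.68 on the 4 arrays. Of 19937 named genes, 55.6% to 60.4% were above it on an array. Across named genes, Pearson's r was 0.994 between the BMEos arrays and 0.992 between the BMB arrays, against 0.934 to 0.936 between a BMEos and a BMB array, as a description. The 6 measured eosinophil markers were all above background on both BMEos arrays, and the 7 basophil markers on both BMB arrays. *Prg2* read 12.20 and 12.02 in B6 and *Slpi*-/- BMEos against 5.35 and 5.58 in BMBs, and *Mcpt8* read 12.96 and 12.72 in BMBs against 5.25 and 5.18 in BMEos, so each label stood with its markers. Of the markers of other cells, *Cma1*, a mast cell chymase, was at 4.93 to 5.79 on the 4 arrays and at 11.99 and 12.19 in mast cells. The erythroid markers *Klf1* and *Alas2* and the natural killer cell marker *Ncr1* were below background on all 4 arrays. The lymphocyte marker *Cd3e* read 5.63 and 5.78 in BMEos and 5.87 and 6.01 in BMBs. Of the dendritic cell markers, *H2-Ab1* was above background on all 4 arrays, at 6.67 and 7.22 in BMEos and 7.33 and 7.82 in BMBs. The 4 megakaryocyte markers were 3 and 4 above background in BMEos and 4 in each BMB array, and the log2 of their summed signal was 10.46 and 10.61 in BMEos and 12.50 and 12.33 in BMBs. The same sum over the 5 neutrophil markers was 11.66 and 11.26 in BMEos and 12.46 and 12.72 in BMBs. *Ly6g* alone read 12.38 and 12.68 in BMBs, while *Ngp* and *Ltf* were higher in BMEos. Of the neutrophil markers, 4 and 5 were above background in BMEos against 3 and 2 in BMBs. Over 3 measured monocyte and macrophage markers the sum was 9.63 and 9.80 against 8.23 and 8.0. Their part in the results was not tested. The BMB arrays were not alike in genes of dividing and immature cells. The proliferation gene *Mki67* read 8.32 in B6 and 6.46 in *Slpi*-/- BMBs against 8.04 and 7.55 in BMEos, and *Mpo*, myeloperoxidase of immature neutrophils, read 8.84 and 6.0 against 6.23 and 6.43.

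The first question was which genes are set apart in the 2 cell types. Of 12653 genes above background on at least 1 of the 4 arrays, 673 were higher in BMEos, or 5.32% of the genes tested, and 801 were higher in BMBs, or 6.33%, at an adjusted p under 0.05 and at least a 2-fold difference in limma with genotype as a block. Every called gene had the same sign in both genotypes, and 580 of the 673 and 662 of the 801 were at least 2-fold in each. The same values made the calls, so this is a description and no separate check. The BMEos side held 535 genes that were above background on both BMB arrays and 102 that were below it on both. The BMB side held 491 genes above background on both BMEos arrays and 256 below it on both. So most genes on either side were above background in the other cell, and genes below it there were more numerous on the BMB side. The background was 5.57 and 5.68 on the B6 and *Slpi*-/- BMB arrays and 5.65 and 5.68 on the BMEos arrays. Genes below it in 1 cell type were tested only through their signal in the other. These counts therefore depend on the cut-off and the filter. A difference of at least 4 on the log2 scale, counted from the background where a cell was below it, was reached by 34 genes in BMEos and 26 in BMBs. For genes below background on both arrays of a cell type, folds are given as "at least", from the mean of the brighter cell to the mean of the other cell's background, or its own signal where higher. Where 1 of the 2 arrays of the dimmer cell was below background, the fold is that of the measured means, which holds for *Retnla*, *Hspa1a*, *Ngp*, *Clec12a*, *Prss34*, *Tpsb2*, *Lif*, *Il1b*, *Tlr2*, *Hs3st1*, *Abca1*, *Pf4* and *Retnlg* among the genes named below. Some dim values just above background were below the 99th percentile of olfactory receptor genes, 6.38 to 6.49 on the 4 arrays. Among them were *Anpep*, *Cdh1* and *Grm6* in BMEos and *Inpp5j* and *Rflnb* in BMBs. The folds of these, and of other genes below with dim values in this range, are limited by the floor.

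**Figure D1:**
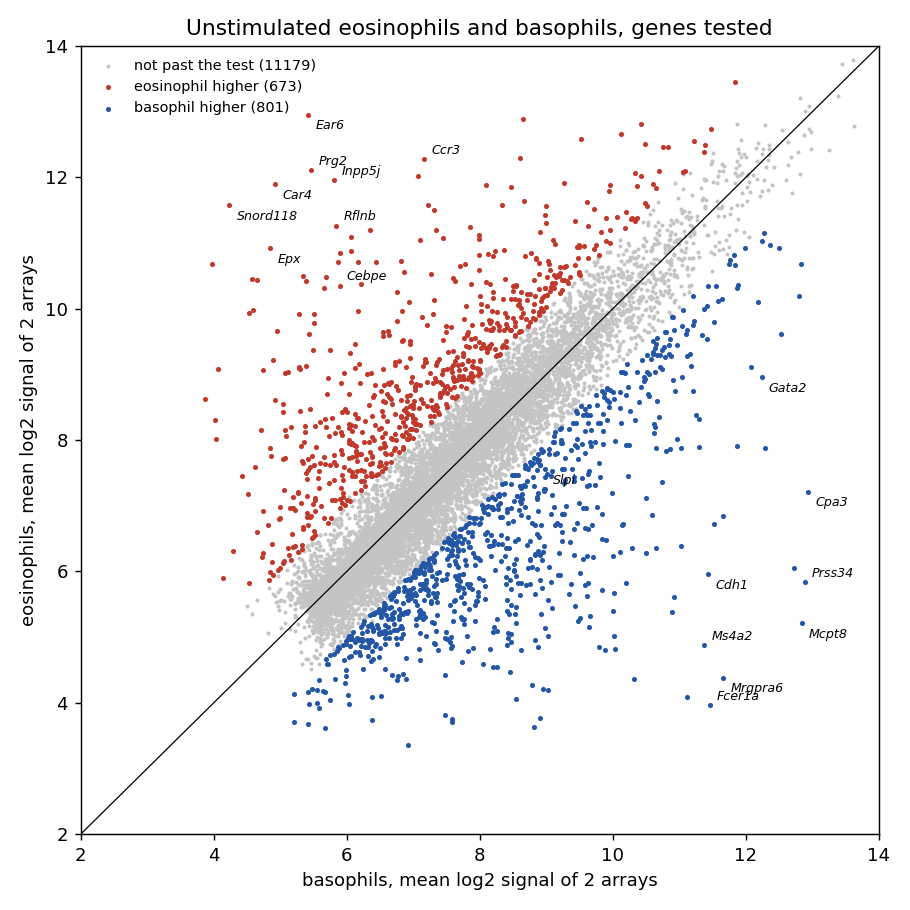
Mean log2 signal in BMBs (x axis) and BMEos (y axis), each over the B6 and *Slpi*-/- array, for 12653 genes tested. Red points are the 673 genes called higher in BMEos, blue points the 801 called higher in BMBs, grey points the rest, and the line marks equal signals. The named eosinophil and basophil genes lie in opposite corners, and *Slpi*, labelled on the blue side, was not called.

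The 20 genes furthest apart on the BMEos side began with the granule proteins of eosinophils. *Ear6* (gene ID 93719), an eosinophil-associated ribonuclease, read 13.10 in B6 and 12.81 in *Slpi*-/- BMEos and 5.37 and 5.47 in BMBs. The BMB values lay below background, and *Ear6* was at least 161-fold higher in BMEos (limma difference 7.54, SE 0.12, adjusted p = 2.55e-07). *Prg2*, the major basic protein, was at least 89.4-fold higher, and *Epx*, eosinophil peroxidase, which read 11.17 and 10.67 against 4.92 and 4.78, was at least 39.2-fold higher. *Car4*, a membrane-bound carbonic anhydrase, read 11.84 and 11.94 in BMEos and 4.97 and 4.88 in BMBs, at least 76.8-fold apart. *Inpp5j*, a phosphoinositide 5-phosphatase, read 11.90 and 12.01 against 5.86 and 5.77 and was 70.5-fold higher (limma, adjusted p = 3.65e-07).

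The chemokine receptor *Ccr3*, which binds eotaxins, read 12.25 and 12.30 in BMEos and 6.78 and 7.55 in BMBs, both above background, and was 34.6-fold higher. *Adgre4*, an adhesion G protein-coupled receptor, was at 10.66 and 10.70 against 3.88 and 4.08 and at least 33.2-fold higher. *Rflnb*, which encodes refilin B, a filamin regulator, was 42.8-fold higher, *Selenom*, a selenoprotein of the endoplasmic reticulum, 32.7-fold, and *Cpd*, carboxypeptidase D, 30.7-fold. *Acpp*, an acid phosphatase, was at least 29.3-fold higher and *Ctsh*, the lysosomal protease cathepsin H, 28.7-fold. *Ahr*, the aryl hydrocarbon receptor, read 11.02 and 10.74 in BMEos and 6.09 and 6.05 in BMBs, and mast cells, at 10.34 and 10.36, were near the BMEos level. Of the 20 genes, *Ahr* was the only one whose mast cell mean lay within 1 log2 unit of BMEos, and 13 were below background on both mast cell arrays. Less even between genotypes were *Retnla*, a secreted resistin-like molecule, at 9.86 and 10.99 against 5.05 and 5.74, and *Hspa1a*, an inducible heat shock protein, at 9.71 and 11.26 against 5.74 and 5.63. *Ngp*, neutrophilic granule protein, read 11.18 and 10.51 in BMEos and 6.77 and 5.02 in BMBs, and *Clec12a*, an inhibitory lectin receptor, 10.64 and 10.77 against 6.54 and 5.20. The small nucleolar RNA *Snord118* was at least 61.7-fold higher in BMEos, and the RIKEN transcripts *9830107B12Rik* and *A530064D06Rik* were each at least 28.2-fold higher.

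The 250 bases before the start of transcription are shown for 5 of the leading genes, because these genes mark the cell type most sharply. Taken were the first with a promoter in the RefSeq table (GRCm38.p6), outside some chromosomes that were left out by rule. They are *Ear6* at chr14:51853518-51853767 on the plus strand, *Car4* at chr11:84957504-84957753 on the plus strand, *Rflnb* at chr11:76027783-76028032 on the minus strand, *Epx* at chr11:87875537-87875786 on the minus strand and *Ccr3* at chr9:124021721-124021970 on the plus strand. Capitals mark a GATA motif (AGATAA or TGATAA) or a C/EBP motif (TTGCNNAA) on either strand.
Ear6: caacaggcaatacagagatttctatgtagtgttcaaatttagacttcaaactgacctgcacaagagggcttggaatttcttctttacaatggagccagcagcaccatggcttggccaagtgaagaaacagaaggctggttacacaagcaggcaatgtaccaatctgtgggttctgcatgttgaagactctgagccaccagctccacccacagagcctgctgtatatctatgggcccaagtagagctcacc
Car4: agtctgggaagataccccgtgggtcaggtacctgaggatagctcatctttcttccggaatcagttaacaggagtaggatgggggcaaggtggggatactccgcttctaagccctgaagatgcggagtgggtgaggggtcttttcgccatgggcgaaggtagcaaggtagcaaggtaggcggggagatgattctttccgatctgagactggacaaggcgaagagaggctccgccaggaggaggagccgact
Rflnb: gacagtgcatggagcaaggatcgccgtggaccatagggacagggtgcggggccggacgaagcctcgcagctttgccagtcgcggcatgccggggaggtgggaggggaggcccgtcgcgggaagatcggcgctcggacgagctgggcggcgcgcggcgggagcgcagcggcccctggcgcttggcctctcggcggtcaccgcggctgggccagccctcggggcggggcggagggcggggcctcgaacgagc
Epx: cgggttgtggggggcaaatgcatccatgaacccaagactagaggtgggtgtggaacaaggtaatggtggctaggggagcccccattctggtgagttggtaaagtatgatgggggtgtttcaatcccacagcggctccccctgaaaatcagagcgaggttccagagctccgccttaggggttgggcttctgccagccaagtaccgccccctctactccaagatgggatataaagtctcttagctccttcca
Ccr3: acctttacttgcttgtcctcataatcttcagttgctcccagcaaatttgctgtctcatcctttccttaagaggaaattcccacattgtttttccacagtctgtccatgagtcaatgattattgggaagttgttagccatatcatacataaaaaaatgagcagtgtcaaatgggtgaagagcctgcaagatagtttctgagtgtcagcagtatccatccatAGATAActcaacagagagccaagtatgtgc
*Ccr3* held 1 GATA motif, AGATAA, and none of the other 4 windows held either motif.

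On the BMB side, the 20 leading genes began with granule proteases. *Mcpt8* (gene ID 17231), mast cell protease 8, a basophil protease in spite of its name, was at least 145-fold higher in BMBs (limma difference -7.63, SE 0.10, adjusted p = 2.55e-07). *Prss34* (gene ID 328780), which encodes mast cell protease 11, read 12.99 and 12.78 in BMBs and 5.64 and 6.04 in BMEos and was 132-fold higher. Both were low in mast cells, where *Mcpt8* read 5.43 and 5.13 and *Prss34* 6.58 and 6.16. *Cpa3*, carboxypeptidase A3, read 12.94 on both BMB arrays and 7.49 and 6.93 in BMEos, 53.0-fold apart, and mast cells were at 13.11 on both arrays. *Tpsb2*, tryptase beta 2, read 11.02 and 10.81 in BMBs against 5.49 and 5.74 in BMEos, where the B6 value was below background, a 39.4-fold difference of the measured means, and *Ctsg*, cathepsin G, was at least 20.2-fold higher.

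The subunits of the IgE receptor followed. *Fcer1a*, the alpha chain that binds IgE, read 11.43 and 11.47 in BMBs and 3.48 and 4.45 in BMEos and was at least 55.3-fold higher, and *Ms4a2*, the beta chain, read 11.43 and 11.31 against 4.93 and 4.82 and was at least 52.3-fold higher (limma, adjusted p = 1.31e-06 and 3.45e-07). *Cd200r3*, an activating receptor of the CD200R family, was at least 43.6-fold higher at 11.06 and 11.16 against 3.96 and 4.22. *Anpep*, aminopeptidase N or CD13, was 102-fold higher at 12.80 and 12.64 against 6.11 and 5.98. The G protein-coupled receptors *Mrgpra6* and *Mrgpra4* were at least 63.9-fold and 20.6-fold higher, and *Grm6*, a metabotropic glutamate receptor, 20.7-fold. *Cdh1*, the adhesion molecule E-cadherin, read 11.47 and 11.39 in BMBs against 5.73 and 6.18 in BMEos and was 44.4-fold higher. *Hdc*, histidine decarboxylase, which makes histamine, was 21.2-fold higher, and *Slc18a2*, the vesicular transporter that loads histamine into granules, 28.0-fold. *Ccnd2*, cyclin D2, was 28.3-fold higher and *Trf*, transferrin, 24.9-fold. *Il7r*, the IL-7 receptor alpha chain, was at least 20.4-fold higher. *Igfbp5*, an insulin-like growth factor binding protein, was at least 37.2-fold higher at 11.47 and 10.30 against 5.39 in both, and *Akr1c18*, an aldo-keto reductase of progesterone metabolism, at least 25.3-fold at 11.11 and 9.53 against 4.36 in both.

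The mast cell arrays divided the BMB genes. Mast cell means of 7 of the 20, *Anpep*, *Fcer1a*, *Cpa3*, *Ms4a2*, *Tpsb2*, *Slc18a2* and *Mrgpra4*, were above or within 1 log2 unit below the BMB mean. Both mast cell arrays were below background for *Mcpt8*, *Mrgpra6*, *Akr1c18* and *Grm6*. *Mrgpra6* and *Mrgpra4*, members of the same receptor family, fell on opposite sides. *Mrgpra6* read 11.57 and 11.75 in BMBs and 4.63 and 4.60 in mast cells, and *Mrgpra4* 10.12 and 9.94 in BMBs and 11.36 and 11.80 in mast cells. These are values side by side, with no test.

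**Figure D2:**
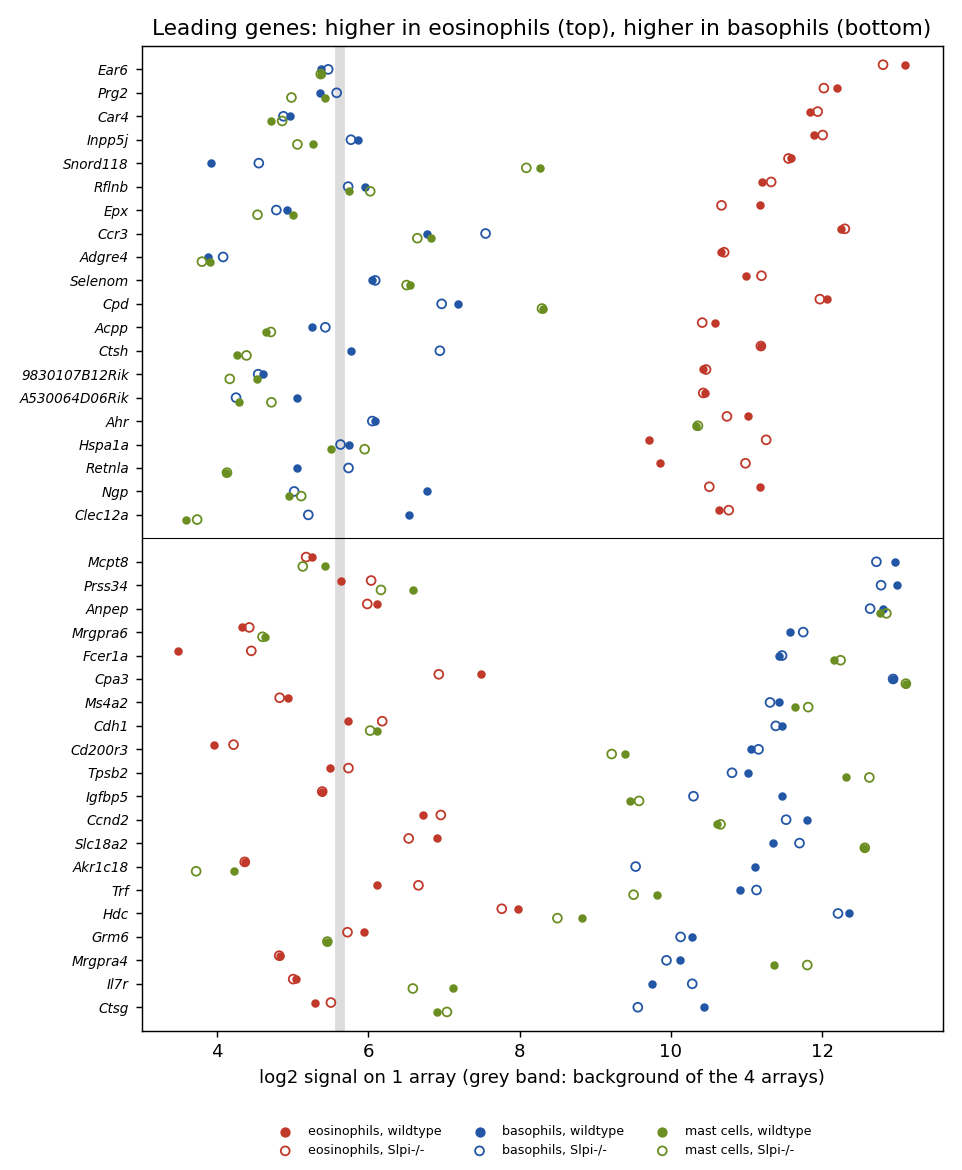
Log2 signal (x axis) of the 20 leading genes of each direction (y axis) on single arrays. Red, blue and green points are eosinophils, basophils and mast cells, filled for B6 (wildtype) and open for *Slpi*-/-, and the grey band is the background, 5.57 to 5.68. The red and blue points of a gene are apart in both genotypes, and green points lie near blue for *Anpep*, *Cpa3* and the IgE receptor genes but near the background for *Mcpt8* and *Mrgpra6*.

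The upstream windows of 5 of the leading BMB genes, taken by the same rule, are shown for comparison. They are *Mcpt8* at chr14:56085198-56085447 on the minus strand, *Prss34* at chr17:25298144-25298393 on the plus strand, *Anpep* at chr7:79848211-79848460 on the minus strand, *Fcer1a* at chr1:173227230-173227479 on the minus strand and *Cpa3* at chr3:20242182-20242431 on the minus strand. Capitals mark the same motifs.
Mcpt8: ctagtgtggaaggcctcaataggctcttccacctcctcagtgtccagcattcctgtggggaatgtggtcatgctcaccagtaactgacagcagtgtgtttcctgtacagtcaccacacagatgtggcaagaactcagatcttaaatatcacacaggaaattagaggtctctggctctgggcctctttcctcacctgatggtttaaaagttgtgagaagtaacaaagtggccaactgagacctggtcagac
Prss34: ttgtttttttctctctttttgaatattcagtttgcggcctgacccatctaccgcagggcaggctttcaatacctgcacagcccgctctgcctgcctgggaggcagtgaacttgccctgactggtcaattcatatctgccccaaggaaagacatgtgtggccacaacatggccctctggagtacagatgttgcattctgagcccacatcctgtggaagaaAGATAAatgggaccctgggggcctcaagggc
Anpep: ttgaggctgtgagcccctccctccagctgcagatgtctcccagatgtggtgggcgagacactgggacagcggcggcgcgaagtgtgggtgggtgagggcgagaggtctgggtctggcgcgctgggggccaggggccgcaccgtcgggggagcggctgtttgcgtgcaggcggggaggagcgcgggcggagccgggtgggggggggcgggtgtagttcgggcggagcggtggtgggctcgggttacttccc
Fcer1a: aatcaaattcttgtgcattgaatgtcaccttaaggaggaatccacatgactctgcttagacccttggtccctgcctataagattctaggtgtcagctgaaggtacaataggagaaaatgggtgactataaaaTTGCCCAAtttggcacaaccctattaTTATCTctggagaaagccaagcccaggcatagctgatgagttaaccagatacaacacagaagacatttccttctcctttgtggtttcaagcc
Cpa3: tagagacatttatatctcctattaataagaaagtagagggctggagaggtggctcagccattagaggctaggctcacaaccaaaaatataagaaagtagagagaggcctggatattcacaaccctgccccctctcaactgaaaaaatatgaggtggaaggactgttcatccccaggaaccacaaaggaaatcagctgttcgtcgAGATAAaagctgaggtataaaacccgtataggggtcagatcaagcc
*Prss34*, *Fcer1a* and *Cpa3* each held 1 GATA motif, and *Fcer1a* also held 1 C/EBP motif. In the whole 300-base windows, which add 50 bases after the start, no further match was present in these 10 genes. A GATA motif was present in 13.4% of 523 windows of genes higher in BMEos, 14% of 622 higher in BMBs, 10.3% of 8920 other genes tested and 19% of all 27025 windows. A C/EBP motif was present in 11.5%, 10.6%, 7.54% and 10.8%. These shares are descriptions, and a match is not a binding site.

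Over all genes tested, 5.32% were higher in BMEos and 6.33% in BMBs. The counts of called genes in the lists and families below stand beside these shares. A count near them is no result about a list. Of the eosinophil granule protein list, 7 of 14 genes were measured, 5 were tested and 4 were higher in BMEos, with none higher in BMBs. The median difference was 3.87, against -0.007 over all named genes. Beside *Ear6*, *Prg2* and *Epx*, the list held *Prg3*, a homologue of major basic protein, at 9.53 and 9.20 in BMEos against 5.55 and 5.45 in BMBs, at least 13.4-fold. *Ear1* had no probe set of its own symbol and was not analysed here. Of 20 eosinophil surface and lineage genes, all tested, 13 were higher in BMEos and none in BMBs, with a median difference of 1.49. *Il5ra*, the IL-5 receptor alpha chain, read 8.41 and 8.85 in BMEos and 3.80 and 3.94 in BMBs and was at least 8.02-fold higher. *Siglecf*, an inhibitory receptor used to sort eosinophils, was 14.9-fold higher at 10.64 and 10.80 against 6.75 and 6.89 (limma, adjusted p = 9.71e-07). Some of the genes were also well expressed in BMBs. *Adgre1*, an adhesion G protein-coupled receptor also used as a macrophage marker, read 12.09 on both BMEos arrays and 11.34 and 10.82 in BMBs, a 2.02-fold difference that was under 2-fold without the *Slpi*-/- array of BMEos (0.69 on the log2 scale) or of BMBs (0.95). *Itgam*, the CD11b integrin chain, was 4.01-fold higher at 11.65 and 11.59 against 9.61 and 9.63, and was at 5.16 and 5.17 in mast cells.

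Of 17 basophil and mast cell granule protease genes, 15 were measured and 8 tested, and 7 were higher in BMBs and none in BMEos, with a median of -0.70. Besides those above, *Gzmb*, the granule protease granzyme B, read 8.86 and 8.70 in BMBs and 4.40 and 4.15 in BMEos, and 12.32 on both mast cell arrays. *Tpsg1*, a membrane-anchored tryptase, was 9.31-fold higher in BMBs. *Cma1* was tested but did not pass, and *Mcpt4* was below background on the 4 arrays. Of 19 measured basophil surface and lineage genes, 11 were higher in BMBs and 1 in BMEos, and the median was -1.40. Among the 11 was *Itga2*, whose product is the DX5 antigen used to select BMBs, at 9.85 and 9.86 against 8.32 and 8.48, so its difference is no finding. *Il3ra*, the IL-3 receptor alpha chain, was 4.32-fold higher in BMBs at 9.60 and 9.47 against 7.38 and 7.47. *Cd200r1* and *Il18r1*, receptors of CD200 and IL-18, were 10.6-fold and 14-fold higher, and the activation antigen *Cd69* 13.7-fold. *Ptgdr2*, the prostaglandin D2 receptor CRTH2, went the other way. It read 7.56 and 7.95 in BMEos and 5.50 and 5.47 in BMBs, below background, and was at least 4.36-fold higher in BMEos (limma, adjusted p = 2.71e-05).

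The IgE receptor signalling list of 25 measured genes was split, with 9 higher in BMBs, 7 higher in BMEos and a median of 0.03. The receptor chains *Fcer1a* and *Ms4a2* and the adaptors *Lat* and *Lat2* were on the BMB side. *Lat*, the linker for activation of T cells, read 10.38 and 10.21 in BMBs and 6.36 on both BMEos arrays, a 15.3-fold difference, and *Lat2*, its homologue, was 5.50-fold higher. *Fyn*, a kinase of the SRC family, was at least 10.7-fold higher in BMBs at 9.10 and 9.08 against 5.49 and 5.41, while *Fgr*, another kinase of that family, was 10.1-fold higher in BMEos at 9.43 and 9.50 against 6.13 and 6.12. The phospholipases were likewise divided. *Plcg1* was 4.96-fold higher in BMBs and *Plcg2* 2.77-fold higher in BMEos. *Syk*, the kinase recruited by the receptor, was 2.29-fold higher in BMEos at 10.21 and 10.20 against 8.93 and 9.09, while *Fcer1a* and *Ms4a2* were below background there. *Rasgrp4*, a Ras activator, was 5.91-fold higher in BMEos and *Rasgrp1* at least 2.58-fold higher in BMBs. The phosphatases *Ptpn22* and *Ptpn6* were 7.96-fold and 2.14-fold higher in BMEos, and *Ptpn6* was not called without *Slpi*-/- BMBs.

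Of 8 measured histamine genes, 4 were higher in BMBs and none in BMEos. *Hdc* read 12.35 and 12.21 in BMBs and 7.98 and 7.76 in BMEos, above background there, and 8.83 and 8.50 in mast cells. *Slc18a2* read 11.35 and 11.70 in BMBs, 6.91 and 6.53 in BMEos and 12.55 and 12.57 in mast cells. *Hrh4*, the histamine H4 receptor, was at least 15.7-fold higher in BMBs at 9.52 and 9.75 against 5.20 and 5.11, and *Hrh2* 2.17-fold higher, but under 2-fold without *Slpi*-/- BMEos (log2 difference -0.95). Genes of leukotrienes and prostaglandins were divided, with 6 of 27 measured higher in BMEos and 5 in BMBs. *Alox15*, the 15-lipoxygenase, read 12.60 and 12.72 in BMEos and 9.95 and 10.30 in BMBs, 5.8-fold apart, and was at background in mast cells (5.11 and 5.13). *Ptgs2*, the inducible cyclooxygenase, was 11.3-fold higher in BMEos at 10.06 and 10.45 against 6.85 and 6.66. *Lta4h*, leukotriene A4 hydrolase, was 3.48-fold higher in BMEos. On the BMB side were *Hpgds*, the haematopoietic prostaglandin D synthase, at least 7.0-fold at 8.47 on both arrays against 5.13 and 4.96, and *Ptger3*, a prostaglandin E receptor, 17.5-fold at 9.92 and 9.76 against 5.74 and 5.69. The synthase was thus higher in BMBs and the receptor *Ptgdr2* higher in BMEos. *Ltc4s*, leukotriene C4 synthase, read 6.11 and 6.05 in BMEos and 6.06 and 6.36 in BMBs and did not pass.

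Of 30 measured cytokine genes, 4 were higher in BMBs and 2 in BMEos, and 12 were below background on all 4 arrays. *Il6* read 9.09 and 8.81 in BMBs and 4.02 and 4.41 in BMEos, at least 9.75-fold apart (limma, adjusted p = 2.10e-06). *Lif*, an IL-6 family cytokine, was 12.9-fold higher in BMBs at 9.95 and 8.73 against 5.76 and 5.55, *Il15* at least 6.67-fold and *Il1b* 4.90-fold. *Il1rn*, the IL-1 receptor antagonist, was 12.4-fold higher in BMEos at 11.01 and 11.15 against 7.30 and 7.60, and *Ebi3*, a subunit of IL-27, 4.04-fold. The BMB side thus held *Il1b* and the BMEos side its antagonist. The type 2 cytokine genes did not pass the 2-fold minimum. *Il4* read 7.37 and 7.63 in BMEos against 7.23 and 7.36 in BMBs, and *Il13* 7.47 and 7.65 against 7.16 and 6.84. Of 28 measured chemokine genes, 7 were higher in BMBs and none in BMEos, with a median of -0.25. *Ccl3* was 4.44-fold higher at 12.82 and 12.84 against 10.78 and 10.59, and *Ccl4* 6.60-fold at 9.04 and 8.54 against 6.06 and 6.07. *Ccl22* and *Ccl17*, ligands of CCR4, and *Ccl5* were uneven between the BMB arrays. *Ccl22* read 7.58 in B6 and 9.23 in *Slpi*-/- BMBs and was at least 6.70-fold higher, *Ccl17* 7.47 and 8.70, and *Ccl5* 7.55 and 9.97 (limma, adjusted p = 0.000778, 0.00788 and 0.0107). Without *Slpi*-/- BMEos, the number of chemokine genes called was 4, and *Ccl17* and *Ccl5* were among those lost. *Ccl17* was also lost without *Slpi*-/- BMBs.

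Receptors for chemoattractants were called on both sides, with 4 of 24 measured higher in BMEos and 5 in BMBs. *Cxcr4*, the receptor for the BM chemokine CXCL12, was 10.5-fold higher in BMEos at 11.27 and 11.21 against 7.61 and 8.09. *Ccr2* was at least 15.9-fold higher in BMBs at 9.52 and 9.80 against 4.96 and 5.67, *C5ar1*, a receptor of the complement fragment C5a, at least 7.27-fold, and *S1pr1*, a receptor of sphingosine 1-phosphate, 13.6-fold at 9.93 and 10.07 against 6.12 and 6.35. *Cxcr2* was 3.66-fold higher in BMBs and at 9.52 and 9.57 in BMEos. Of 29 measured haematopoietic cytokine receptor genes, 5 were higher in BMEos and 6 in BMBs. The BMEos side held *Il5ra*, *Csf2ra*, the GM-CSF receptor alpha chain, 3.10-fold, and *Il1r2*, the IL-1 decoy receptor, at least 19.5-fold at 9.99 and 9.84 against 5.54 and 5.04. *Csf1r*, the macrophage colony-stimulating factor receptor, was 6.36-fold higher in BMEos at 9.43 and 9.62 against 6.92 and 6.78. The BMB side held *Il3ra*, *Il7r*, *Il18r1* and *Il2ra*, the IL-2 receptor alpha chain, which was at least 7.77-fold higher at 8.42 and 8.82 against 4.72 and 4.88.

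Of 49 measured lineage transcription factor genes, 12 were higher in BMBs and 10 in BMEos, and 24 of the 46 tested did not pass. The C/EBP factors were on opposite sides. *Cebpa* read 10.07 and 10.21 in BMBs and 6.59 and 6.83 in BMEos, a 10.8-fold difference, while *Cebpe*, a factor of late granulocyte maturation, read 10.36 and 10.34 in BMEos and 5.99 and 5.79 in BMBs, a 22-fold difference (limma, adjusted p = 7.02e-06 and 7.18e-07). *Cebpb* was 4.45-fold higher in BMEos. *Gata2* read 12.20 and 12.27 in BMBs and 8.92 and 8.99 in BMEos and was 9.71-fold higher in BMBs, with mast cells at 12.00 and 12.10. *Gata1* differed less, at 9.25 on both BMEos arrays against 8.89 and 8.76, which was under the 2-fold minimum (limma difference 0.43, SE 0.12, adjusted p = 0.0273). The progenitor factors *Tal1* and *Meis1* were 5.35-fold and at least 4.78-fold higher in BMBs, and *Bach2*, a transcriptional repressor, at least 3.82-fold. *Runx1* was 2.59-fold and *Mitf*, a mast cell factor, 2.76-fold higher in BMBs, with *Mitf* at 10.57 and 10.66 in mast cells against 7.73 and 7.52 in BMBs. On the BMEos side, *Ikzf3*, the zinc finger factor Aiolos, was 13.9-fold higher at 9.94 and 9.99 against 6.05 and 6.29, and *Trib1*, a pseudokinase that directs C/EBPα to degradation, 4.60-fold at 8.19 and 8.29 against 6.03 and 6.05. Among immediate early genes, *Fos* was 12.3-fold and *Jun* 3.39-fold higher in BMEos, whereas *Egr1* was 3.61-fold higher in BMBs. Several further genes of this kind, not named here, were called higher in BMEos, and the class was not counted as a list.

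**Figure D3:**
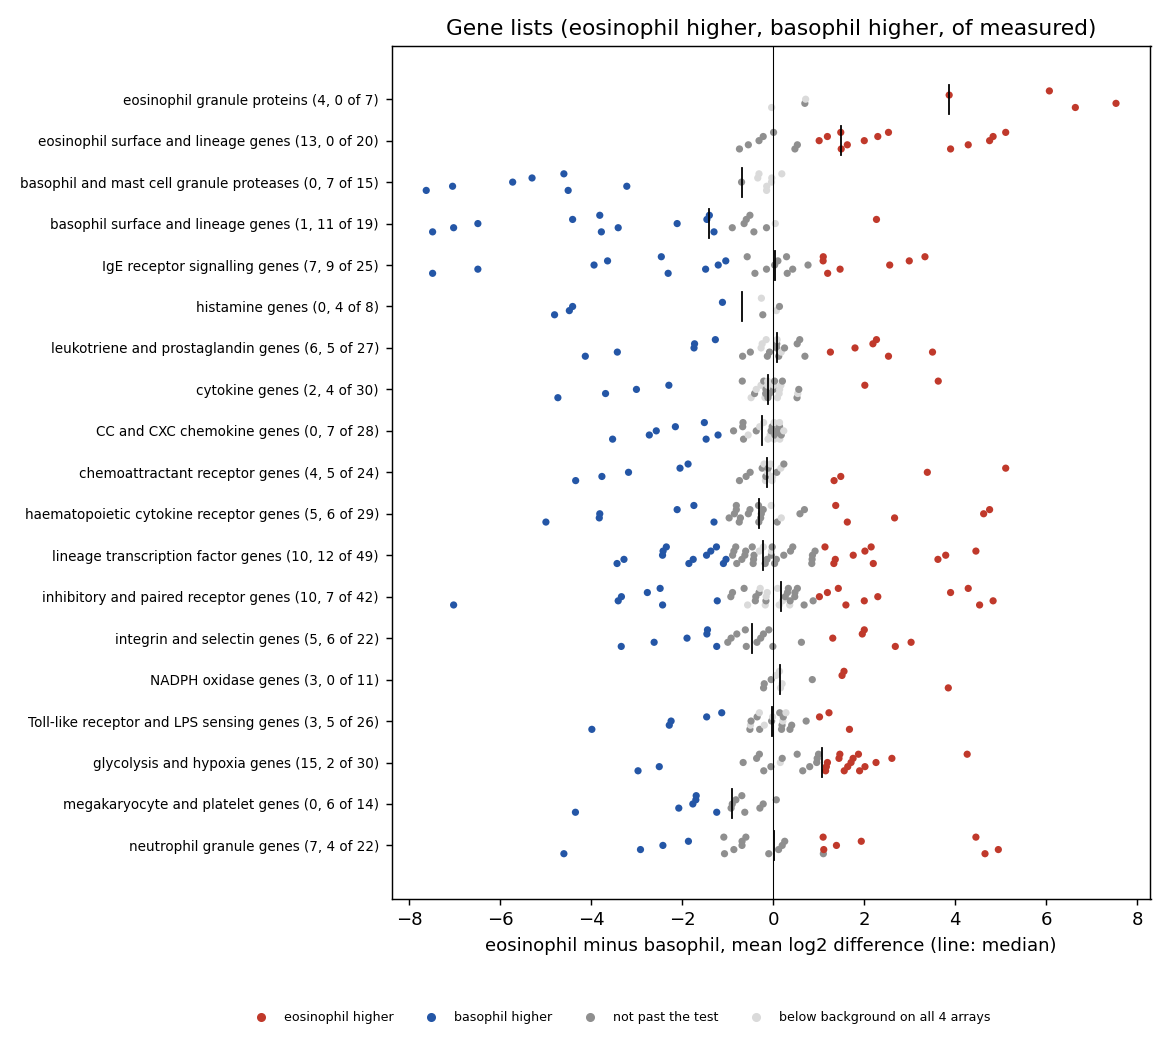
Eosinophil minus basophil log2 difference (x axis, mean of the genotypes) of each measured gene in 19 lists (y axis). Red and blue points were called higher in eosinophils or basophils, dark grey points did not pass, pale grey points were below background on all 4 arrays, and the black line is the median. Granule protein and surface lists lie to the side of their own cell type, the IgE signalling and transcription factor lists spread to both sides, and 15 of 30 glycolysis and hypoxia genes are red.

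Of 42 measured inhibitory and paired receptor genes, 10 were higher in BMEos and 7 in BMBs. *Siglecg*, an inhibitory sialic acid receptor, was 23.2-fold higher in BMEos at 10.48 and 10.93 against 6.14 and 6.20, and *Siglece* at least 4.26-fold. *Siglecf*, above, was also called, while *Cd33* (-0.93), of the same family, was under 2-fold. The CD300 genes *Cd300lb*, *Cd300ld* and *Cd300lf* were 2.70-fold, 4.01-fold and 2.29-fold higher in BMEos, and *Cd300a* (0.37) and *Cd300c* (0.27) were not called. All 4 CD200 receptor genes were on the BMB side, with *Cd200r4* 6.80-fold and *Cd200r2* 5.39-fold higher besides *Cd200r3* and *Cd200r1*. The C-type lectins were divided. *Clec4a2* was at least 6.39-fold higher in BMEos, and *Clec4e* and *Clec4d*, receptors of microbial glycolipids, 5.60-fold and at least 7.39-fold higher in BMBs. Of 22 integrin and selectin genes, 5 were higher in BMEos and 6 in BMBs. *Itgax*, the CD11c chain, was 8.18-fold higher in BMEos at 9.51 and 9.80 against 6.12 and 7.12, and *Itga4*, the alpha chain of VLA-4, 6.43-fold at 9.48 and 9.54 against 6.55 and 7.10. *Itga6* was 10.1-fold higher in BMBs at 10.05 and 9.62 against 6.63 and 6.36, and *Itga1* at least 3.69-fold.

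Of 26 measured Toll-like receptor and LPS sensing genes, 5 were higher in BMBs and 3 in BMEos, with 1 on the BMEos side when the *Slpi*-/- array of either cell type was left out. *Tlr4*, the LPS receptor, was 3.20-fold higher in BMEos at 8.86 and 8.91 against 7.24 and 7.18. *Nlrp3*, an inflammasome sensor, was at least 6.89-fold higher in BMBs at 8.45 on both arrays against 4.92 and 4.01. *Tlr2* was 4.87-fold higher in BMBs, but read 9.04 in B6 and 6.90 in *Slpi*-/- BMBs, and it was not called without B6 BMEos (limma, adjusted p = 0.0155 with all arrays). Of 11 measured NADPH oxidase genes, 3 were higher in BMEos and none in BMBs. *Cybb*, the catalytic subunit of the phagocyte oxidase, read 11.12 and 11.27 in BMEos and 7.47 and 7.22 in BMBs, a 14.4-fold difference, and *Ncf4*, a cytosolic subunit, and *Hvcn1*, a proton channel, were 2.86-fold and 2.94-fold higher. *Cyba*, the partner of *Cybb*, was at 12.40 and 12.33 against 11.51 and 11.50, under the 2-fold minimum.

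Of 25 measured protease inhibitor genes, 5 were higher in BMBs and 2 in BMEos. *Serpinb1a*, an inhibitor of neutrophil serine proteases, was 19.6-fold higher in BMBs at 11.00 and 10.28 against 6.56 and 6.14, and *Wfdc17*, a whey acidic protein domain gene like *Slpi*, 7.62-fold at 9.29 and 9.89 against 6.40 and 6.92. *Timp2*, an inhibitor of metalloproteinases, and *Serpinb2*, an inhibitor of plasminogen activators, were 5.88-fold and 4.08-fold higher in BMEos. *Slpi* itself is the targeted gene. It read 11.42 in B6 BMBs and 8.08 in B6 BMEos, and 6.55 and 6.41 in the *Slpi*-/- cells. Over both genotypes the difference was not called (-1.74, SE 0.94, adjusted p = 0.19 in limma).

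Glycolysis and hypoxia genes were the list with the largest number of called genes on the BMEos side. Of 30 measured, 15 were higher in BMEos and 2 in BMBs, with a median of 1.08. *Egln3*, a prolyl hydroxylase induced by hypoxia, read 10.70 and 10.71 in BMEos and 6.41 and 6.47 in BMBs and was 19.2-fold higher (limma, adjusted p = 1.68e-06). *Bnip3*, a mitophagy gene, was 6.11-fold higher at 10.58 and 10.61 against 8.11 and 7.86, the glycolytic enzyme gene *Tpi1* 4.79-fold, and *Hif1a*, the hypoxia-inducible factor, 3.73-fold at 11.30 and 11.36 against 9.51 and 9.35. *Ldha*, lactate dehydrogenase A, was 3.11-fold and the glucose transporter *Slc2a1* 3.28-fold higher. *Hk3*, a hexokinase, and *Ndrg1* were 7.84-fold and 5.67-fold higher in BMBs. The number called on the BMEos side was 14 to 17 under the alternative settings of the limma fit.

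Of 34 measured SNARE and exocytosis genes, 4 were higher in BMBs and 1 in BMEos, and most were not called. Among the 4 were the vesicle genes *Sytl3*, *Sytl2* and *Rab27b*, at least 9.23-fold, 6.03-fold and 5.21-fold higher. Of 24 proteoglycan and granule assembly genes, 5 were higher in BMBs and 1 in BMEos. *Hs3st1* and *Papss2*, which act in heparan sulphate synthesis and in sulphate activation, were 4.70-fold and 3.23-fold higher in BMBs, and *Chsy1*, a chondroitin synthase, 2.67-fold higher in BMEos. Of 40 lysosomal genes, 9 were higher in BMBs and 4 in BMEos. *Glb1*, beta-galactosidase, was 7.24-fold and *Ctss*, cathepsin S, 4.23-fold higher in BMBs, and *Arsb*, arylsulphatase B, 4.78-fold higher in BMEos, as was *Ctsh* above. Of 13 alternative activation and arginine genes, 3 were higher in BMEos and 4 in BMBs. The arginase genes were divided, with *Arg2* at least 4.23-fold higher in BMEos and *Arg1* at least 2.21-fold higher in BMBs. *Bcl2* was 3.67-fold higher in BMBs at 10.18 and 10.07 against 8.32 and 8.18, and *Mcl1*, also a survival gene of that family, 2.21-fold higher in BMEos at 11.04 on both arrays against 9.88 and 9.91.

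Of 43 measured cell cycle genes, 3 were higher in BMEos and 5 in BMBs, and the number on the BMEos side was 9 when the B6 BMB array, the one with the higher *Mki67*, was left out. *Ccnd2* and *Cdk6*, cyclin D2 and a kinase it can bind, were on opposite sides, with *Cdk6* 4.22-fold higher in BMEos at 10.39 and 10.52 against 8.60 and 8.16. Of 24 measured cholesterol synthesis and transport genes, 1, the lipid exporter *Abca1*, was higher in BMBs and none in BMEos, but 5 were higher in BMEos without the B6 BMB array. Of 28 unfolded protein response genes, 1 was higher in BMEos and 2 in BMBs, *Calr* and *Pdia4*, neither of which was called without the B6 BMB array. Without the *Slpi*-/- BMB array, 4 genes of this list were higher in BMBs, and without the B6 BMEos array 1. Of 25 interferon-induced genes, *Oasl2* was at least 5.62-fold higher in BMEos and *Trim30a* and *Irgm1* 2.85-fold and 2.06-fold higher in BMBs, of which *Irgm1* was not called without *Slpi*-/- BMEos.

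Of 14 megakaryocyte and platelet genes, 6 were higher in BMBs and none in BMEos, with a median of -0.91. *Pf4*, platelet factor 4, read 9.88 and 10.16 in BMBs and 5.62 and 5.73 in BMEos, a 20.3-fold difference, and was at 4.82 and 5.21 in mast cells, while *Ppbp*, another platelet chemokine, read 11.27 and 10.81 against 8.79 and 9.14. The platelet glycoprotein genes *Gp9* and *Gp5* were 3.23-fold and 3.25-fold higher in BMBs. Of 22 neutrophil granule genes, 7 were higher in BMEos and 4 in BMBs. On the BMEos side, *Retnlg*, a resistin-like protein, read 10.04 and 10.60 against 5.10 and 6.23, of which the B6 BMB value was below background, a 25.2-fold difference of the measured means, and *Ltf*, lactoferrin, at least 1.45-fold at 6.26 and 6.07, though not called without B6 BMEos. On the BMB side, *Ly6g*, the neutrophil surface antigen, was 7.55-fold higher at 12.38 and 12.68 against 9.55 and 9.67, and *Lyz2*, lysozyme, 3.64-fold. *Mpo*, *Elane* and *Prtn3*, the azurophil granule genes, did not pass, and without the *Slpi*-/- BMB array 9 genes of the list were higher in BMBs. Of 18 monocyte and macrophage genes, 5 were higher in BMBs and 2 in BMEos, *Csf1r* and *Adgre1*, and *C1qa* was below background on all 4 arrays. Of 17 dendritic cell and MHC class II genes, *Itgax* and the costimulatory gene *Cd80* were higher in BMEos and *Cd74*, *H2-Aa* and *H2-Eb1* in BMBs, of which *H2-Eb1* was not called without *Slpi*-/- BMBs. *Cd74*, the invariant chain, read 8.47 and 9.47 in BMBs against 6.36 and 6.42. Of 14 mast cell markers, 5 were higher in BMBs, and *Kit*, the receptor against which BMBs were selected, read 6.89 and 6.79 in BMBs, 5.99 and 6.07 in BMEos and 12.78 and 12.80 in mast cells. Of 17 T, B and NK cell genes none was called, and their differences lay between -0.23 and 0.71. Of 12 erythroid genes, 2 were higher in BMEos and 1 in BMBs, with *Hbb-y*, an embryonic globin, at 7.09 and 8.10 against 4.59 and 4.65. Of 4 measured sex-linked genes none was called. Whether such genes came from other cells in a culture or from the cells named was not tested.

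The next question was whether the difference between the cell types depended on genotype. The test of this used all 10 arrays and held each stimulus effect equal in both genotypes. The fitted gap is thus shared by unstimulated and stimulated arrays and is not a test of the unstimulated gap alone. It includes the BMEos arrays with LPS, whose sex-linked genes differ from the unstimulated ones, as given below. Differences printed for each genotype are those of the unstimulated arrays. With all 10 arrays, giving the stimuli terms of their own, 1 of 12653 genes passed, or 0.0079%, and 776 had an unadjusted p under 0.05. It was *Slpi*, with a difference of -3.34 in B6 and -0.14 in *Slpi*-/- cells. The *Slpi*-/- contrast was higher by 3.08 in this fit (SE 0.16, adjusted p = 0.00828 in limma). *Slpi* is the deleted gene, so its values check the genotype labels. The next genes by p were *F10*, coagulation factor X, with -0.45 in B6 and -1.74 in *Slpi*-/- cells, *Ccl17* with -0.78 and -2.25, *Hbb-y* with 2.50 and 3.45, and *Cd74* with -2.11 and -3.05, and none of these passed (limma, adjusted p = 0.246 for *F10* and 0.33 for the others). Across the genes tested the median gap between the 2 differences was 0.165, and 104 genes had a gap of at least 1. *Mmp9*, a metalloproteinase, read 5.95 in B6 and 8.33 in *Slpi*-/- BMEos and 5.89 and 6.17 in BMBs. Its cell type difference averaged over the genotypes did not pass (1.10, adjusted p = 0.111 in limma), which does not test its gap between genotypes. In the test of the gap only *Slpi* passed.

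**Figure D4:**
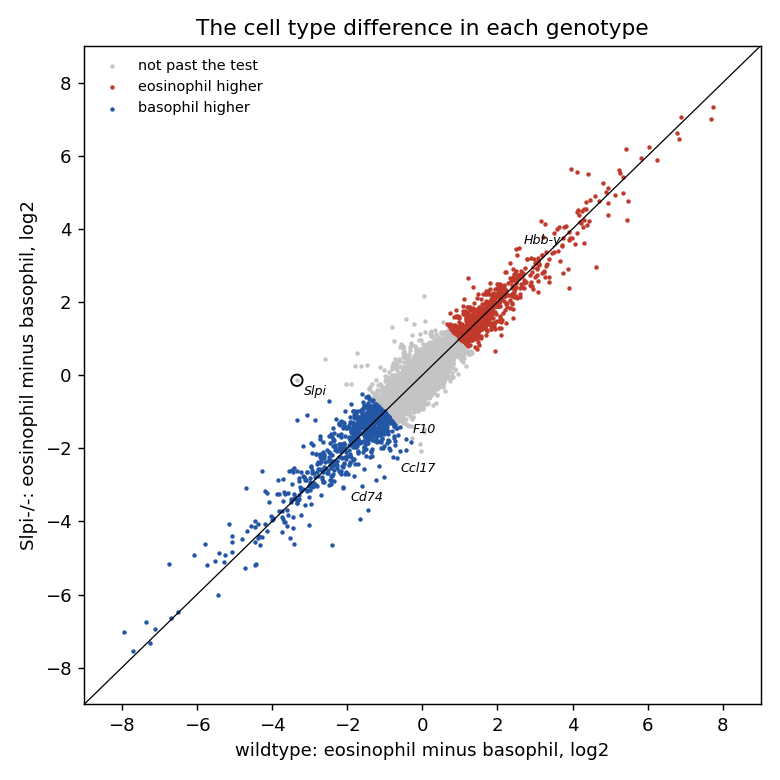
Eosinophil minus basophil log2 difference in wildtype cells (x axis) and in *Slpi*-/- cells (y axis) for 12653 genes tested, with the line of equal differences. Red and blue points were called higher in eosinophils or basophils and grey points were not. *Slpi*, circled, is at -3.34 and -0.14. The other 4 named genes did not pass the test of the gap, which used the stimulated arrays too.

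The last comparison set the same genes on the stimulated arrays, BMEos given LPS for 3 h against BMBs loaded with anti-TNP-IgE (1 h) before TNP-OVA was added for 12 h, with 1 array for each genotype and no test. The stimuli differ between the cells, and sex-linked genes set the BMEos arrays with LPS apart from the unstimulated ones. *Xist* was at 9.72 and 9.66 with LPS and 4.15 and 4.90 without, and *Eif2s3y* at 3.22 and 3.54 against 8.20 and 8.45, whereas *Eif2s3y* was at 7.62 to 8.37 on the BMB arrays. Stimulus and source of the cells cannot be told apart there. Of the 673 genes higher in BMEos, 375 or 55.7% were at least 2-fold higher in both genotypes on the stimulated arrays, where 5.44% of all genes tested were. Of the 801 higher in BMBs, 489 or 61.0% were at least 2-fold higher in both, where 7.14% of all genes tested were. *Ear6* differed by 7.96 and 7.54 and *Mcpt8* by -7.44 and -7.71, close to the unstimulated values. Other leading genes were not close to theirs. *Ahr* differed by 1.45 and 0.86, with 7.36 and 7.39 in BMEos with LPS, and *Snord118* by 3.91 and 3.38.

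In each direction, 18 genes were at least 2-fold the other way in both genotypes on the stimulated arrays. On the BMEos side these were *Bnip3*, *Pfkl*, *Pgk1* and *Aldoc*, which belong to the glycolysis and hypoxia list, and *Ak4*, *Csrnp1*, *Fam162a*, *Gys1*, *Hilpda*, *Hmox1*, *Lpar6*, *Paxbp1*, *Per1*, *Pgm1*, *Rgs1*, *Rpl12*, *Rrp1b* and *Snord14e*. *Bnip3* read 7.53 and 7.58 in BMEos with LPS and 10.35 on both arrays of BMBs with IgE, so that it was lower in the first and higher in the second than without stimulus. *Rgs1*, a regulator of G protein signalling, read 10.79 and 10.82 without and 5.82 and 5.88 with LPS in BMEos, and 8.87 and 8.48 without and 9.06 and 8.65 with IgE in BMBs. On the BMB side these were *Slfn8*, *Clec4e*, *Ccl5*, *Abca1*, *Casp4*, *Gm7265*, *Herc6*, *Igsf6*, *Ikbke*, *Irak3*, *Irgm1*, *Map3k8*, *Nedd4*, *Pilra*, *Rnf213*, *Trim30a*, *Trim30d* and *Vaultrc5*. *Slfn8*, *Trim30d*, *Map3k8* and *Casp4* were below background on both unstimulated BMEos arrays. Counted from the background, their unstimulated log2 differences were -0.05, -0.12, -0.28 and -0.72, under 2-fold. *Slfn8* read 5.51 and 5.85 in unstimulated BMBs, the first below background. In BMEos it read 3.16 and 4.07 without and 8.33 and 9.14 with LPS. *Clec4e* read 6.65 and 6.78 in unstimulated BMEos and 10.82 and 10.71 with LPS, and *Ccl5* 6.10 and 6.28 and then 10.31 and 10.19. *Il6* kept its sign but differed by -1.32 and -1.45 in place of -4.73, with 9.94 and 10.16 in BMEos with LPS and 11.26 and 11.61 in BMBs with IgE. *Cd69* differed by 0.33 and 0.34, and *Hspa1a* by -0.90 and -0.26.

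**Figure D5:**
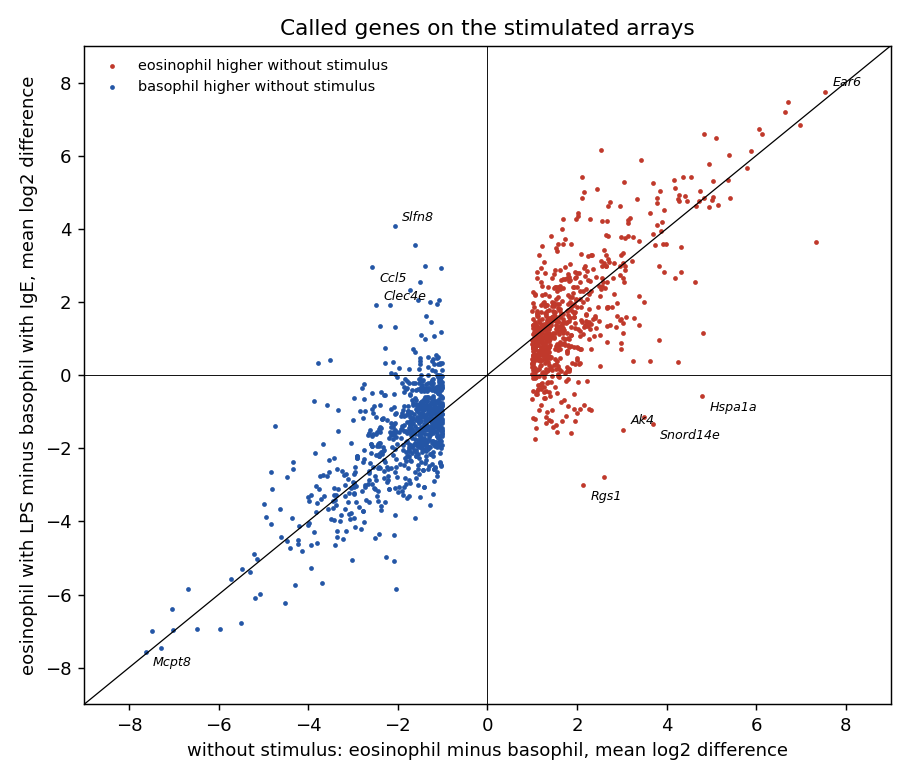
Eosinophil minus basophil log2 difference without stimulus (x axis) and of eosinophils with LPS minus basophils with IgE (y axis), each the mean of the genotypes, for the 673 red genes called higher in eosinophils and the 801 blue genes called higher in basophils without stimulus. Most points keep their side, and points in the upper left and lower right, such as *Ccl5* and *Rgs1*, changed it.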

How the data were processed

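RNA of 10 samples was hybridized to Affymetrix Mouse Gene 1.0 ST arrays, 1 array per condition. The authors deposited log2 signals made by RMA in the affy package, per the labels and the submitters' processing notes, whose versions are not given in the sources used here. RMA normalizes arrays to each other, so a change shared by all genes cannot be seen. The signals were used as deposited, and of 34760 probe sets, 21640 had 1 symbol, 1321 several and 11799 none in the platform annotation. Symbols were updated through gene IDs to RefSeq (21553 probe sets matched), which gave 19937 genes. For 954 genes with several probe sets, the one of highest mean was kept. On each array, 1027 olfactory receptor genes set the background, at their 95th percentile.

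Cell type and genotype were fitted in limma 3.58.1 (R 4.3.3) on the 6 unstimulated arrays, with genotype as a block because each genotype has 1 array per cell type. Genes above background on at least 1 of the 4 arrays were tested two-sided, with Benjamini-Hochberg adjustment. A call needed an adjusted p under 0.05 and a 2-fold difference. The difference between genotypes came from a fit of all 10 arrays, stimulated ones included, with a term for each stimulus. The number of arrays limits the precision. The fit was also run on simulated arrays with independent noise and no difference between genotypes. That run cannot check how the fit treats such differences on the real arrays. Tables and plots used Python 3.11.15, pandas 2.3.3, numpy 2.4.6 and matplotlib 3.10.9.

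The text names the 20 genes with the largest background-limited difference in each direction, up to 6 called genes of each of 35 lists (737 of 820 list genes measured), the markers, *Slpi* and the 5 genes with the lowest p for the genotype difference. Some further list members and the genes of the stimulated arrays were named after their values were seen. The comparison, the lists and the markers were chosen with earlier results of these data known. Promoter windows are from RefSeq GRCm38.p6. Alternatives were another set of arrays, another normalization, filter, background or probe set rule, a variance trend, the methods' t-test, other fold minimums and leaving out each array.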

Additional observations from a re-analysis of the deposited data

Results flagged for a closer look

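*Slpi* was the gene whose difference between BMEos and BMBs depended on genotype. It read 8.08 in B6 BMEos and 11.42 in B6 BMBs, and 6.41 and 6.55 in the *Slpi*-/- cells. The contrast of *Slpi*-/- cells was higher than that of B6 cells by 3.08 (SE 0.16, adjusted p = 0.00828 in limma with all 10 arrays, unstimulated and stimulated). *Slpi* is the gene deleted in these mice.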

How the results depend on the processing

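Genes higher in BMEos numbered 639 to 714 and genes higher in BMBs 739 to 808 with other arrays in the fit, centred or quantile normalized arrays, averaged probe sets, no signal filter, other backgrounds or a variance trend. Leaving out each array in turn gave 661 to 729 and 794 to 844. Without the replicate block the counts were 673 and 801, as with the pairing by genotype. With no fold minimum they were 2447 and 2743, and with a 4-fold minimum 207 and 261. The methods' t-test, paired over the genotypes, called 0 and 0 genes after Benjamini-Hochberg adjustment, with 2436 at an unadjusted p under 0.05, against 6125 in limma. The difference between genotypes gave 1 gene in the limma fits tried. In 14 other limma fits, 551 of the 673 and 599 of the 801 genes were called each time, 116 and 167 were lost in at least 1, and 6 and 35 were called wherever tested but not tested in all. Of 205 called genes named in the report or among the other observations, 183 were called each time, 3 were not tested in all, and 19 were lost in at least 1: *Adgre1*, *Fam162a*, *Hmox1*, *Lpar6*, *Ltf*, *Ptpn6*, *Rrp1b*, *Calr*, *Ccl17*, *Ccl5*, *F10*, *H2-Eb1*, *Hrh2*, *Irgm1*, *Map3k8*, *Nedd4*, *Pdia4*, *Tlr2* and *Trim30d*. The cause was not tested. For the stimulated arrays, centring gave 372 and 497 genes in place of 375 and 489, and quantile normalization 382 and 489; both were chosen after seeing the data. Signals near the background limit the folds of dim genes.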

Other observations

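Families outside the lists were noticed after their values were seen and are given as values. Of 43 small nucleolar RNA genes tested, 23 were higher in BMEos and none in BMBs, with a median difference of 1.30 on the log2 scale. The count was 25 with centred and 22 with quantile normalized arrays. Of 36 histone genes, 13 were higher in BMEos and none in BMBs (14 under either scaling), with a median of 0.81. *H2bc4*, a histone H2B gene, read 11.39 and 11.77 in BMEos, 8.19 and 8.47 in BMBs and 8.24 and 8.36 in BMEos with LPS. Of 8 genes of the MRGPR receptor family, 4 were higher in BMBs and none in BMEos, also under both other scalings. Related members of these families may share probe sequence.

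Of 7 *Ifitm* genes tested, *Ifitm1*, *Ifitm2* and *Ifitm3* were higher in BMBs, and *Ifitm5*, *Ifitm6*, *Ifitm7* and *Ifitm10* were not called. *Ifitm2* read 10.94 and 10.79 in BMBs and 7.99 and 7.72 in BMEos, *Ifitm1* 12.61 and 12.97 against 10.49 and 9.88, and *Ifitm3* 8.56 and 8.39 against 5.58 and 5.87, with 1 of the 2 BMEos arrays below background. *Fos*, an immediate early gene higher in BMEos, read 9.41 and 9.32 without and 5.51 and 5.74 with LPS.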
